A study of Rattus norvegicus with 16 samples.

Results

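The cadherins and protocadherins are described here across wild-type adrenal medulla, adrenal medullary hyperplasia and pheochromocytoma of the rat. Members were the genes whose only symbol on a probe set of the array's annotation was Cdh followed by digits, or began with Pcdh, and each gene was read from the probe set with the highest mean over the 16 arrays. This gave 32 of 14216 genes, read by 44 probe sets. They comprise 3 classical cadherins of type I, 8 of type II, the GPI-anchored Cdh13, the seven-domain cadherins Cdh16 and Cdh17, Cdh23, 8 non-clustered protocadherins and 9 protocadherins of the alpha and beta clusters.

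The mutant rats carried a mutation of p27Kip1 (Cdkn1b), an inhibitor of cyclin-dependent kinases, and the controls were wild type. All were of the strain Sprague–Dawley white eye/Wistar–Kyoto. Young wild type comprised 2 pools of medulla at 2 months, of 2 and 3 animals, and hyperplasia comprised 8 arrays at 2 months. Older wild type comprised 2 pools of 2 rats each, the first at 10 months and the second with rats aged 12 and 17 months. Pheochromocytoma, a tumour of chromaffin cells, comprised 3 arrays at 8 months and 1 at 9 months, so the tumours came from younger rats than their controls. The wild-type arrays are pools and the mutant arrays are labelled as biological replicates, so the p-values measure the spread between these samples.

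Cadherins are calcium-dependent adhesion proteins. The classical ones bind like molecules on a neighbouring cell and link through catenins to the actin cytoskeleton. Protocadherins have more diverse tails and weaker adhesion, and in neurons the alpha, beta and gamma clusters give single cells different surface identities. Chromaffin cells derive from the neural crest, where the loss and gain of individual cadherins goes with migration and settling.

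Values are log2 expression values, and differences are log2 differences ± standard error from a limma fit over all 16 arrays with labelled sex as a covariate. A gene passed at an adjusted p under 0.05, Benjamini-Hochberg over 31042 probe sets. No call of detection accompanies the values, so each array's own first quartile over its probe sets, 4.71 to 4.93, served as a mark of dim signal. The means of 11 members lay below it in all 4 groups, and signal over background was not shown there. Arrays of 1 group correlated at 0.981 or more.

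The level of Xist, which coats the inactive X chromosome, went against the labelled sex on 6 arrays, namely both young wild-type pools and 4 of the hyperplasia arrays (replicates 1, 2, 5 and 6). With the Xist level as the covariate, each of the 9 calls of members against wild type described next was also made. The fit cited below as without the 4 hyperplasia arrays of discordant Xist also had no sex covariate, and it kept both young pools. The hexokinase controls probe the 3′ and 5′ ends of that transcript, and the gap between them (3′ minus 5′, log2), which widens as RNA or labelling is less complete, was 1.07 to 1.63 on the young arrays of both genotypes and 2.16 to 3.30 on the older ones. The mean of 11 adrenal cortex markers was 10.48 to 11.29 in hyperplasia against 11.63 to 11.81 in its controls. In the tumours it was 10.34 to 11.68 against 12.02 to 12.41. It did not overlap in either comparison, so a fit with this mean as a covariate cannot separate cortex from group. With it 1.23% of all genes passed in hyperplasia and 0.176% in the tumours, against 8.5% and 15.3% without it. Most calls of other genes were lost there as well. The mean of 9 epithelial markers was higher on all mutant arrays than in their controls, at 6.31 to 6.82 against 5.62 to 5.69 and at 6.13 to 7.13 against 5.42 to 5.53, and its part in the members' values was not tested. Defining markers of chromaffin cells were above the first quartile in every group, 10 of 10. Their mean was also higher on all mutant arrays than in their controls, at 12.71 to 12.88 against 12.46 to 12.59 in hyperplasia. In the tumours it was 12.24 to 12.44 against 11.73 to 12.23, and its part in the members' values was not tested. In bulk tissue fewer cells of a type and less RNA per cell cannot be told apart.

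A small part of the family differed from wild-type medulla. In hyperplasia 3 of 32 members passed as higher (9.38%, against 5.16% of all genes) and 2 as lower (6.25%, against 3.33%). In pheochromocytoma 3 passed as higher (9.38%, against 8.84% of all genes) and 1 as lower (3.12%, against 6.49%). Those shares lie near those of all genes and mark nothing about the family as a whole, whose median difference was 0.00 in hyperplasia and -0.02 in the tumours, beside -0.01 and 0.00 for all genes. An unadjusted p under 0.05 was reached by 14 of the 32 in hyperplasia (43.8%, against 25.5% of all genes) and by 7 in the tumours (21.9%, against 32.5%). Pcdh9 passed in both comparisons, 7 other members passed in 1 of them, and 24 passed in neither. Full separation of the tumours from their 2 pools was also seen for dim members that passed in neither, such as Cdh12 and Cdh23. The share of all genes separated in this way is not given here. In a fit on the tumours and older pools alone, Cdh22 (adjusted p = 0.064) and Cdh17 (adjusted p = 0.0541) missed the threshold. There 2.97% of all genes passed, against 15.3% in the main fit, and Pcdh8 passed as lower (-0.77, adjusted p = 0.0388). In a fit on hyperplasia and young pools alone Pcdh10 missed it (adjusted p = 0.0616), and 8.46% of all genes passed.

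**Figure D1:**
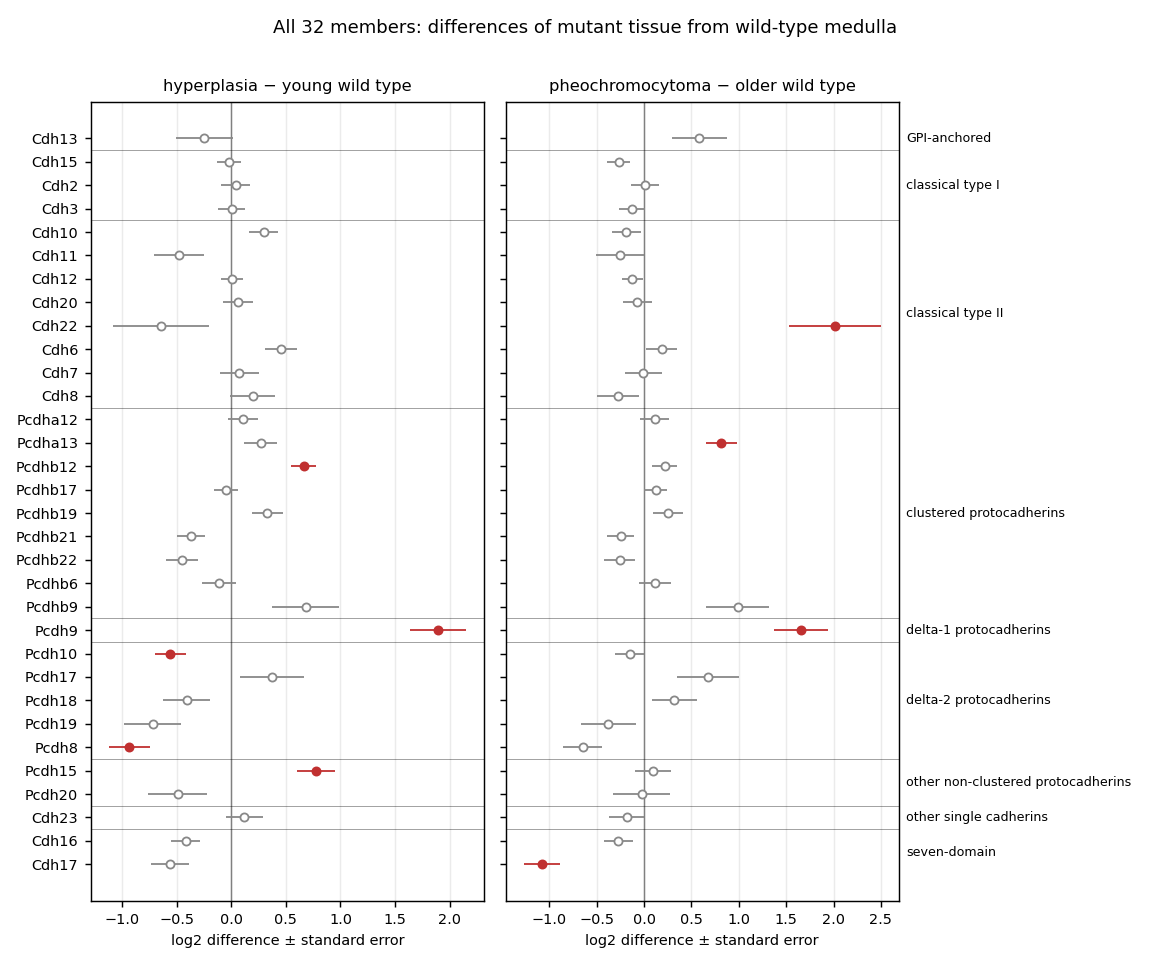
Log2 differences of the 32 members from age-matched or older wild-type medulla, with standard errors from the limma fit. Filled red points passed the test (5 in hyperplasia, 4 in pheochromocytoma), and lines separate the role classes. Pcdh9 stands at 1.89 and 1.66, Cdh22 at -0.64 and 2.01.

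Pcdh9 passed in both comparisons, Cdh22 had the largest difference in the tumours and Pcdh8 the largest decrease in hyperplasia, and the 250 bases upstream of their annotated starts are shown because they differ in CpG content. The sequences are RefSeq's on GRCr8, all on the minus strand, printed 5′ to 3′ with each CG dinucleotide in capitals: chr3:174389893-174390142 for Cdh22, chr15:76643953-76644202 for Pcdh9 and chr15:61612091-61612340 for Pcdh8.
Cdh22: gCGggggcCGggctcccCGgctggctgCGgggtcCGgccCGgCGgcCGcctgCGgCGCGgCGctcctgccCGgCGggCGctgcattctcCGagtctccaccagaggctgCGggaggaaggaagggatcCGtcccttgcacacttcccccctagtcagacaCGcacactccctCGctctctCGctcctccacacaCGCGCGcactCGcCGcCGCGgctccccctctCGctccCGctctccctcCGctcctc
Pcdh9: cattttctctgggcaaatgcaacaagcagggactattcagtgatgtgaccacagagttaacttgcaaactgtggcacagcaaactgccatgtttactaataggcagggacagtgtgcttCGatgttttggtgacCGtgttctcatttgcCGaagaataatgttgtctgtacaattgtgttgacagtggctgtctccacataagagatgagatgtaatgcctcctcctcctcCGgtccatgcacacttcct
Pcdh8: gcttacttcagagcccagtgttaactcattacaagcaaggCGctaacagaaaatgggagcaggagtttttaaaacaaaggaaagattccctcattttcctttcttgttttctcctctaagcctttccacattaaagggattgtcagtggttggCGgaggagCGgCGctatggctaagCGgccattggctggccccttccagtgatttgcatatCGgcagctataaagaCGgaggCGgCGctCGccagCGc
The Cdh22 window held 31 CG dinucleotides, a number reached by 4.68% of the 33469 promoter windows of this table. The Pcdh8 window held 11 and that of Pcdh9 held 4, against a median of 5 over all windows. The motif TATAAA, searched on both strands, was in the Pcdh8 window, where it begins 30 bases before the start, and in neither of the others, while 12.9% of all windows hold it. The E-box CACCTG, which Snail and Zeb factors bind in cadherin promoters, was in none of the 3 windows and in 15.9% of all windows. Of the 32 members 21 had a window in the table, of which 1 held TATAAA and 1 held CACCTG.

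Among the classical cadherins of type I no member passed against wild type. Cdh2 codes for N-cadherin, the adhesion molecule of neural tissue. It was at 10.55 and 10.60 in young wild type, 10.39 to 10.97 in hyperplasia with a median of 10.60, 9.79 and 10.56 in older wild type, and 10.43, 10.20, 10.28 and 10.08 in the tumours. The groups overlapped in both comparisons. Its differences were 0.04 ± 0.14 in hyperplasia (adjusted p = 0.905) and 0.01 ± 0.15 in the tumours (adjusted p = 0.976), and its other 2 probe sets lay between -0.06 and 0.14. Cdh3, P-cadherin, and Cdh15, the cadherin of muscle, differed by 0.00 and -0.02 in hyperplasia and by -0.13 and -0.27 in the tumours, without passing.

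Of the 8 type II cadherins only Cdh22 passed, and only in pheochromocytoma. Cdh22, first described in pituitary and brain, was at 10.23 and 10.17 in young wild type and at 8.58 to 10.71 in hyperplasia, with a median of 9.48. In older wild type it was at 10.79 and 9.65, and in the 4 tumours at 11.78, 12.50, 11.90 and 12.84. Every tumour lay above both older pools, while the hyperplasia arrays reached from below to above their controls. Within hyperplasia Cdh22 was at 8.58 to 9.34 on the 4 arrays with Xist above 8 and at 9.63 to 10.71 on the other 4. Such a separation by Xist was seen for 28.1% of members, against 17.6% of all genes, and its cause was not tested. The difference of Cdh22 was 2.01 ± 0.48 in the tumours (4.04-fold, adjusted p = 0.0148) and -0.64 ± 0.44 in hyperplasia (adjusted p = 0.419). The tumour difference missed the threshold without older pool 2 (1.44, adjusted p = 0.26) and without tumour 4 (1.70, adjusted p = 0.0576). With the mean of the cortex markers added as a covariate it was 1.81 (adjusted p = 0.344).

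The second probe set of Cdh22 gave another picture of hyperplasia. It was at 6.79 and 7.45 in young wild type, 8.44 to 8.96 in hyperplasia with a median of 8.91, 7.25 and 6.70 in older wild type, and 8.47, 8.70, 9.30 and 9.41 in the tumours. Here all mutant arrays lay above all wild-type pools. The differences were 1.72 ± 0.23 in hyperplasia (adjusted p = 0.000723) and 1.98 ± 0.26 in the tumours (adjusted p = 0.000476). Both probe sets passed as higher in pheochromocytoma, whereas in hyperplasia only the second passed and the first was at -0.64 without passing. The mean of both was at 0.54 ± 0.28 in hyperplasia (adjusted p = 0.237). The suffix of the second marks it as one that matches several transcripts of a gene, and which transcripts each reads was not analysed here.

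**Figure D2:**
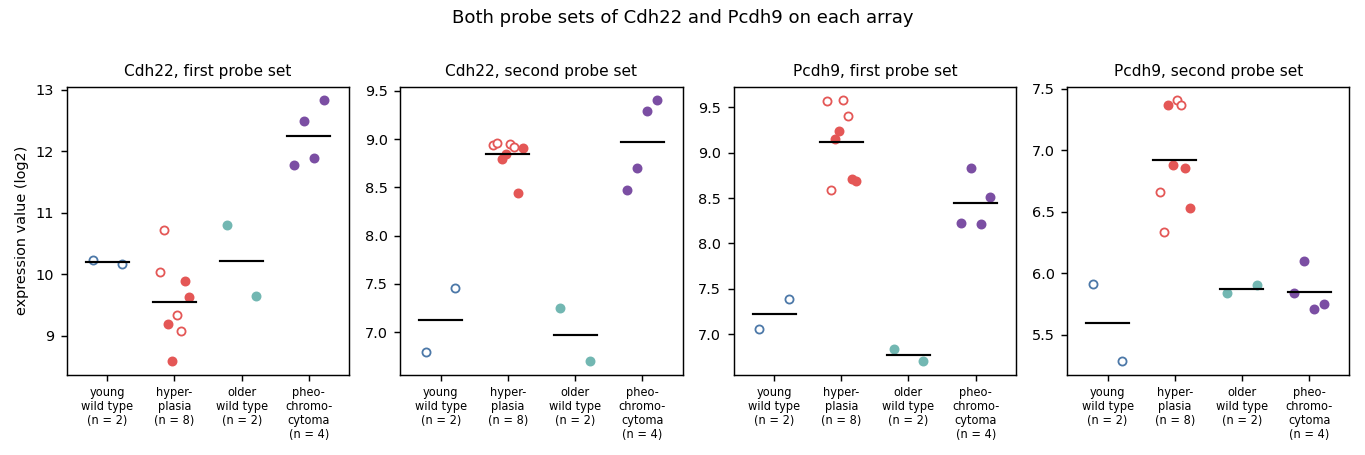
Values (log2) on each of the 16 arrays for both probe sets of Cdh22 and both of Pcdh9, with a bar at the group mean. Open points are the 6 arrays whose Xist level went against the labelled sex. The second Cdh22 probe set separates hyperplasia (8.44 to 8.96) from young wild type (6.79 and 7.45) where the first overlaps, and the second Pcdh9 probe set overlaps between tumours and older wild type.

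The other type II cadherins stayed within narrow limits. Cdh11, a cadherin of mesenchymal cells, ranged from 6.09 to 6.91 in hyperplasia, under both young pools (7.03 and 7.09), but its difference of -0.48 ± 0.23 missed the threshold (adjusted p = 0.233). Its other probe sets were at -0.07 and -0.11. In the same comparison 1 of 13 fibroblast and pericyte markers passed as higher and 2 as lower, and their part in the Cdh11 values was not tested. Cdh6, which is prominent in kidney and neural crest, was at 0.45 ± 0.15 in hyperplasia (adjusted p = 0.0795). Cdh7, Cdh8, Cdh10, Cdh12 and Cdh20, known mainly from the nervous system, lay between 0.00 and 0.30 in hyperplasia and between -0.27 and -0.01 in the tumours, and all but Cdh20 were dim in all 4 groups.

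Cdh13 lacks a cytoplasmic tail and is held by a lipid anchor. It was at 8.29 and 8.05 in young wild type and 7.47 to 8.42 in hyperplasia, with a median of 7.88. In older wild type it was at 7.09 and 7.00, and in the tumours at 7.35, 7.16, 7.61 and 8.24. All tumours lay above the older pools on each of the 3 probe sets of Cdh13, which read the same samples. The differences were 0.58 ± 0.29, 0.70 ± 0.28 and 0.71 ± 0.33, none of which passed (adjusted p = 0.114 to 0.191).

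Both seven-domain cadherins, which have short tails without a catenin binding site, pointed downward. Cdh17, the liver and intestine cadherin, was at 6.62 and 6.84 in young wild type and 5.80 to 6.48 in hyperplasia, with a median of 6.14. In older wild type it was at 6.85 and 7.50, and in the tumours at 6.32, 5.82, 6.03 and 6.08. No mutant array reached its controls. The difference was -1.08 ± 0.19 in the tumours (2.11-fold lower, adjusted p = 0.00301) and -0.56 ± 0.17 in hyperplasia (adjusted p = 0.0626), and the latter passed with the Xist level as the covariate (-0.57, adjusted p = 0.0262). Of 11 adrenal cortex markers 6 passed as lower in the tumours and 0 as higher. With their mean as a covariate the Cdh17 difference was -0.59 (adjusted p = 0.321), in a fit where 0.176% of all genes passed. It also missed the threshold without older pool 2 (-0.80, adjusted p = 0.098). Cdh16, the kidney cadherin, was at -0.42 ± 0.13 and -0.27 ± 0.15, passed in neither comparison (adjusted p = 0.075 and 0.247) and was dim in 3 groups.

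Pcdh9, the only delta-1 protocadherin measured, had the largest increase against wild type in hyperplasia and the second largest in the tumours, after Cdh22. This protocadherin is expressed in developing neural circuits. It was at 7.06 and 7.38 in young wild type and at 8.58 to 9.58 in hyperplasia, with a median of 9.19. In older wild type it was at 6.84 and 6.70, and in the tumours at 8.23, 8.83, 8.21 and 8.51. No mutant array overlapped its controls. The difference was 1.89 ± 0.26 in hyperplasia (3.71-fold, adjusted p = 0.000731) and 1.66 ± 0.28 in the tumours (3.15-fold, adjusted p = 0.00249). In hyperplasia it passed without any 1 of the arrays, and also with the cortex covariate (1.55, adjusted p = 0.0257). For the tumours the difference was 1.61 without older pool 2 (adjusted p = 0.0505) and at 1.14 with the cortex covariate (adjusted p = 0.266).

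The second probe set of Pcdh9 passed in hyperplasia only. It was at 5.91 and 5.28 in young wild type and 6.34 to 7.41 in hyperplasia, a difference of 1.33 ± 0.25 (adjusted p = 0.00552). The tumours were at 5.84, 6.10, 5.71 and 5.75 and in older wild type at 5.84 and 5.91, a difference of 0.02 ± 0.28 (adjusted p = 0.97). The mean of both probe sets was higher in the tumours by 0.84.

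Of the 5 delta-2 protocadherins 2 passed as lower in hyperplasia (40%, against 3.33% of all genes) and 0 as higher, with 4 differences negative and 1 positive. In the tumours 0 passed on the probe set read for each gene, with 3 negative and 2 positive. Pcdh8, known as arcadlin in rat neurons, where activity induces it, was at 7.55 and 7.68 in young wild type and 6.35 to 7.01 in hyperplasia, with a median of 6.72. In older wild type it was at 7.14 and 6.72, and in the tumours at 6.50, 6.52, 6.41 and 5.78. Every mutant array lay below its controls. The difference was -0.93 ± 0.19 in hyperplasia (1.91-fold lower, adjusted p = 0.00834) and -0.65 ± 0.21 in the tumours (adjusted p = 0.0524). The latter passed with the Xist level as the covariate (-0.69, adjusted p = 0.0241). The hyperplasia call was lost on leaving out either young pool (adjusted p = 0.0764 and 0.123), without the 4 hyperplasia arrays of discordant Xist (-0.82, adjusted p = 0.0602) and with the cortex covariate (-0.73, adjusted p = 0.158).

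Pcdh10 passed as lower in hyperplasia, at -0.56 ± 0.14 (adjusted p = 0.0251), but all its values lay between 3.00 and 3.99, below the first quartile of every array. It was at 3.58 and 3.99 in young wild type, 3.03 to 3.59 in hyperplasia with a median of 3.19, 3.14 and 3.30 in older wild type, and 3.08, 3.07, 3.08 and 3.00 in the tumours. Hyperplasia overlapped its controls, and the difference was -0.30 without young pool 2 (adjusted p = 0.482) and -0.45 with the cortex covariate (adjusted p = 0.273). Pcdh19, an X-linked protocadherin whose human counterpart is an epilepsy gene, was at 8.74 and 8.55 in young wild type and 6.99 to 8.56 in hyperplasia, with a median of 8.04. Older pools had 8.88 and 9.16, and the tumours 8.78, 8.54, 8.22 and 8.73. Its differences of -0.72 ± 0.26 and -0.38 ± 0.29 did not pass (adjusted p = 0.113 and 0.421). Pcdh17 was at 0.37 in hyperplasia and 0.68 in the tumours, where 1 of its 3 probe sets passed (0.80 ± 0.25, adjusted p = 0.0485). Pcdh18 was at -0.41 and 0.32, without passing.

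Pcdh15 and Cdh23 pair in the tip links of inner ear hair cells. Pcdh15 was at 4.31 and 4.58 in young wild type and 4.89 to 5.60 in hyperplasia, a difference of 0.78 ± 0.17 (adjusted p = 0.014). All 8 hyperplasia arrays lay above the pools, whose values were dim. The call was lost on leaving out either young pool (0.66 and 0.89, adjusted p = 0.168 and 0.0933) and without the 4 hyperplasia arrays of discordant Xist (0.75, adjusted p = 0.0806), and it was at 0.89 with the cortex covariate (adjusted p = 0.0673). In the tumours Pcdh15 was at 4.66 to 4.73, between the older pools at 4.92 and 4.28. Cdh23 was at 4.04 and 4.25 in young wild type, 3.90 to 4.70 in hyperplasia with a median of 4.24, 4.45 and 4.52 in older wild type, and 4.25, 4.32, 4.28 and 4.35 in the tumours. It was dim in all groups and differed by 0.12 in hyperplasia and -0.18 in the tumours. Pcdh20 was at 11.64 and 11.67 in young wild type, 10.21 to 11.62 in hyperplasia with a median of 11.34, 11.23 and 10.71 in older wild type, and 11.52, 11.32, 10.98 and 10.44 in the tumours. Hyperplasia lay just below its controls, without passing (-0.49 ± 0.27, adjusted p = 0.306).

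In the RefSeq gene table of GRCr8 Pcdh8, Pcdh17, Pcdh20 and Pcdh9 follow each other in this order on chromosome 15, with 3, 3 and 1 protein-coding genes between neighbours. These 4 neighbours had differences of -0.93, 0.37, -0.49 and 1.89 in hyperplasia and of -0.65, 0.68, -0.03 and 1.66 in the tumours. Of these, only Pcdh8 and Pcdh9 passed in hyperplasia and only Pcdh9 in the tumours, and a part of position was not tested.

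**Figure D3:**
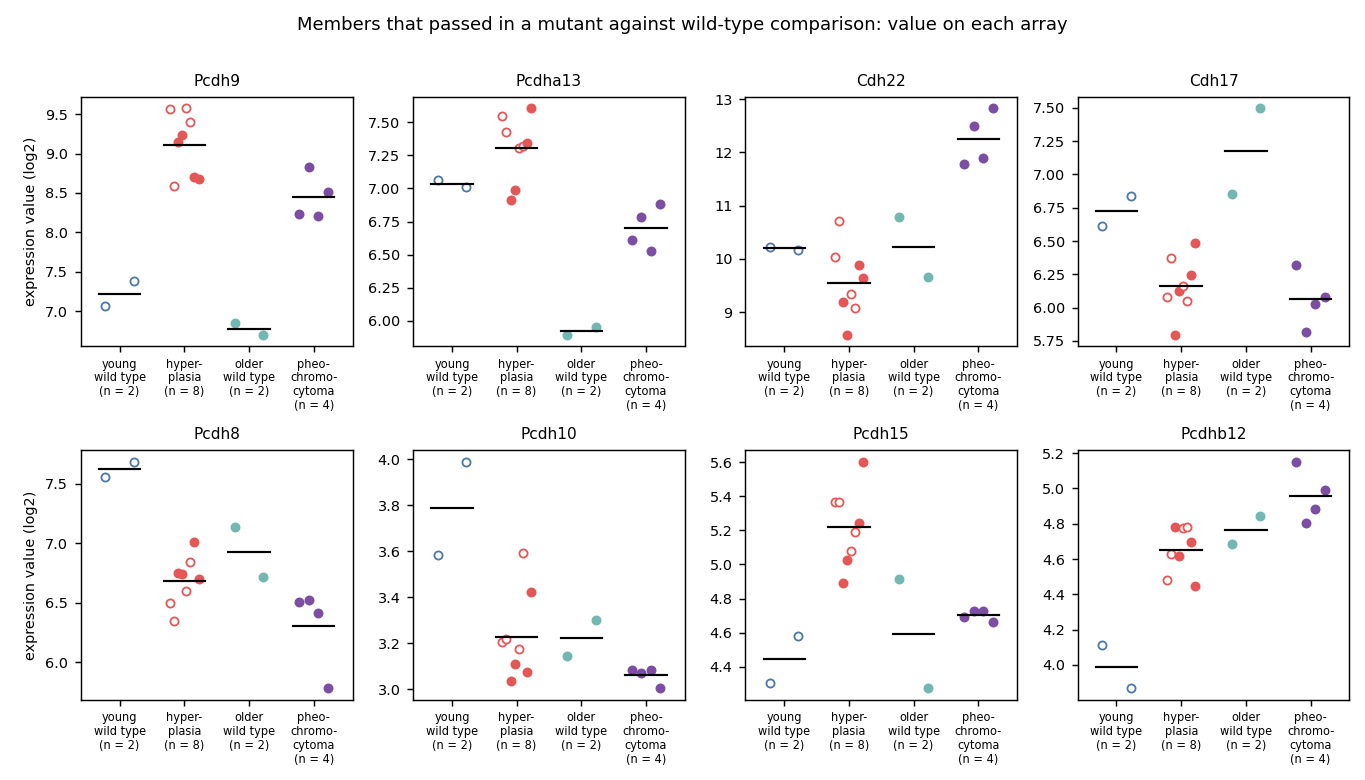
Log2 values on each array for the 8 members that passed against wild type in hyperplasia or pheochromocytoma, with a bar at the group mean. Open points mark the 6 arrays whose Xist level went against the labelled sex. Pcdh9 is higher on all mutant arrays than in their controls, Cdh17 and Pcdh8 are lower on all of them, and Pcdh10 lies below 4 throughout.

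The clustered protocadherins are encoded side by side, and their near-identical copies may share hybridization, so values of single genes are uncertain. Of 9 measured members, 2 of the alpha and 7 of the beta cluster, Pcdhb12 passed in hyperplasia and Pcdha13 in the tumours. Pcdha13 was at 7.06 and 7.01 in young wild type and 6.91 to 7.61 in hyperplasia, with a median of 7.33. The older pools were at 5.90 and 5.95, and the tumours at 6.61, 6.78, 6.53 and 6.88. Every tumour lay above both older pools. The difference was 0.82 ± 0.16 in the tumours (1.76-fold, adjusted p = 0.00593) and 0.27 ± 0.15 in hyperplasia (adjusted p = 0.304). Without older pool 2 it was at 0.76 (adjusted p = 0.101) and with the cortex covariate at 0.92 (adjusted p = 0.167). Pcdha12 differed by 0.11 in both comparisons.

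Pcdhb12 was at 4.11 and 3.87 in young wild type and 4.45 to 4.78 in hyperplasia, a difference of 0.66 ± 0.12 (adjusted p = 0.00372). The groups did not overlap, but both group means were dim, the second probe set was at 0.01 ± 0.17, and the mean of both was at 0.33 (adjusted p = 0.109). The difference was 0.57 without young pool 2 (adjusted p = 0.111) and 0.67 with the cortex covariate (adjusted p = 0.0524). In older wild type it was at 4.68 and 4.84, and in the tumours at 5.15, 4.80, 4.89 and 4.99, which overlap. Pcdhb9 was higher by 0.68 ± 0.30 in hyperplasia (adjusted p = 0.196) and by 0.99 ± 0.34 in the tumours (adjusted p = 0.0643), where its 4 arrays (4.99 to 5.44) lay above the older pools (4.42 and 3.85). It passed in both comparisons with the Xist level as the covariate (0.70 and 0.84, adjusted p = 0.0449 and 0.024). Pcdhb6, Pcdhb17, Pcdhb19, Pcdhb21 and Pcdhb22 were dim in all groups, and their differences lay between -0.46 and 0.33.

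Further probe sets carry the symbols of many genes of a cluster at once and so belong to no single member. The first of the 2 alpha cluster probe sets, with 15 symbols, was at 9.52 and 9.54 in young wild type, 9.88 to 10.20 in hyperplasia, 9.28 and 9.07 in older wild type, and 10.10, 10.02, 10.00 and 10.27 in the tumours. All mutant arrays lay above their controls, with differences of 0.53 ± 0.11 (adjusted p = 0.01) and 0.91 ± 0.12 (adjusted p = 0.000604). The second, with the same symbols, was at 0.34 ± 0.17 in hyperplasia (adjusted p = 0.259) and 0.70 ± 0.19 in the tumours (adjusted p = 0.0255). The 2 gamma cluster probe sets did not pass against wild type, at 0.20 and 0.33 in hyperplasia and 0.27 and 0.44 in the tumours.

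**Figure D4:**
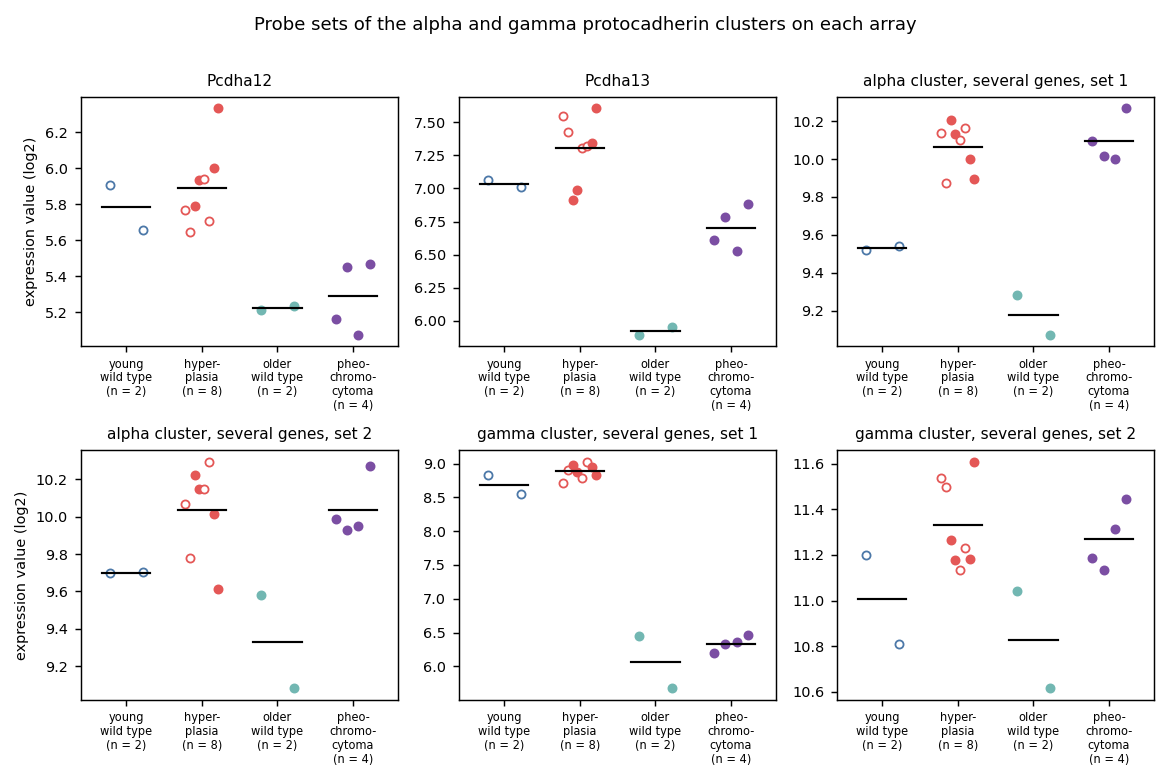
Values (log2) on each array for Pcdha12, Pcdha13 and the probe sets annotated to several genes of the alpha and gamma clusters, with a bar at the group mean and open points for arrays whose Xist level went against the labelled sex. Alpha cluster set 1 is higher on all mutant arrays than in their controls, and gamma cluster set 1 falls from above 8.5 on all young arrays to below 6.5 on all older ones.

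The test of whether an effect differed between tumours and hyperplasia passed for 0 of 32 members in limma, beside 0.00703% of all genes, and 7 members had an unadjusted p under 0.05 (21.9%, against 10.3% of all genes). The largest difference of effects was that of Cdh22, at 2.66 ± 0.65 (adjusted p = 0.188). Without older pool 1 it was at 3.32. On the second probe set of Cdh22 the difference of effects was 0.26 ± 0.35 (adjusted p = 0.828). The mean of both probe sets was at 1.46 ± 0.41 (adjusted p = 0.255). Calls made in 1 comparison alone, such as that of Cdh17, Pcdha13 or Pcdh15, are therefore not shown to differ between the stages.

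Comparisons between young and older tissue gave more calls. In pheochromocytoma against hyperplasia 5 of 32 members passed as higher (15.6%, against 14.6% of all genes) and 6 as lower (18.8%, against 19.2%). Between older and young wild type 3 passed as higher (9.38%, against 8.46% of all genes) and 6 as lower (18.8%, against 12.7%). The older arrays of both genotypes had the wider hexokinase gap given above, which cannot be told apart from age in these comparisons. Of 13 macrophage and leukocyte markers 7 passed as lower in pheochromocytoma against hyperplasia and 5 as lower between older and young wild type, and their part in the members' values was not tested. The comparisons share arrays with those against wild type.

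Pcdha13 and Pcdha12 were lower in older tissue of both genotypes. Pcdha13 fell by 1.11 (log2) between young and older wild type (adjusted p = 0.000732) and was at -0.56 ± 0.12 in pheochromocytoma against hyperplasia (adjusted p = 0.00142). Pcdha12 was at 5.91 and 5.66 in young and 5.21 and 5.23 in older wild type, and its differences were -0.56 ± 0.17 (adjusted p = 0.0315) and -0.55 ± 0.11 (adjusted p = 0.000959). Of these, the Pcdha13 calls held whichever array was left out, and so did that of Pcdha12 in pheochromocytoma against hyperplasia, while the age call of Pcdha12 was lost without any 1 of the 4 pools. The gamma cluster probe set with 14 symbols showed the widest gap, at 8.83 and 8.55 in young and 6.45 and 5.68 in older wild type. Its differences were -2.63 ± 0.20 (adjusted p = 5.46e-07) and -2.55 ± 0.12 (adjusted p = 1.31e-09). The other gamma cluster probe set, with 13 symbols, was at -0.18 and -0.06. The 2 alpha cluster probe sets with 15 symbols did not pass in these comparisons. Between the wild types they were at -0.35 and -0.37 (adjusted p = 0.0841 and 0.234). In pheochromocytoma against hyperplasia they were at 0.03 and -0.01 (adjusted p = 0.819 and 0.964), so the fall of Pcdha13 and Pcdha12 there was not seen on them.

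Cdh22 was the member furthest apart between the 2 mutant stages, at 2.68 ± 0.35 higher in pheochromocytoma than in hyperplasia (adjusted p = 2.26e-05), a call that held whichever array was left out. Its second probe set was at 0.10 ± 0.18 (adjusted p = 0.695), and the mean of both at 1.39. Pcdh9 (-0.69 ± 0.20), Pcdh15 (-0.54 ± 0.14), Cdh2 (-0.43 ± 0.11) and Pcdh8 (-0.41 ± 0.15) were lower in the tumours than in hyperplasia, and Pcdh19 (0.72 ± 0.21), Pcdhb12 (0.33 ± 0.09), Cdh3 (0.30 ± 0.10) and Cdh15 (0.25 ± 0.09) higher. On other probe sets Cdh2 was at -0.98 ± 0.11 (adjusted p = 5.12e-06) and 0.05 ± 0.14 (adjusted p = 0.817), and Pcdh9 at -1.03 ± 0.20 (adjusted p = 0.000754). Cdh13, Pcdh17 and Cdh11 did not pass, but another probe set of each did (-0.68, 0.75 and 0.42, adjusted p = 0.0143, 0.00387 and 0.00344). That of Cdh11 was dim, and the remaining probe sets of these genes did not pass. The calls of Cdh2, Cdh3, Cdh15 and Pcdh19 were lost without the 4 hyperplasia arrays whose Xist level went against the label (-0.29, 0.30, 0.15 and 0.69, adjusted p = 0.153, 0.0849, 0.237 and 0.076). That of Pcdhb12 was lost under quantile normalization (0.23, adjusted p = 0.0955) and with the mean of its probe sets (0.17, adjusted p = 0.204), the second of which was at 0.01. That of Pcdh8 was lost without tumour 4 (-0.18, adjusted p = 0.354), tumour 3 or any 1 of hyperplasia replicates 3 to 8, the last 7 with adjusted p of 0.0522 to 0.0619. That of Cdh3 was lost without tumour 1 or 4 (adjusted p = 0.0516 and 0.065), and that of Cdh15 without tumour 1, 2 or 4 or hyperplasia replicate 1 or 2 (adjusted p = 0.0581 to 0.144).

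Between the wild-type pools, Cdh13 (-1.12 ± 0.33), Pcdh18 (-0.91 ± 0.27), Pcdh8 (-0.69 ± 0.24) and Pcdh10 (-0.57 ± 0.18) were lower in the older ones, and Pcdhb12 (0.77 ± 0.15), Cdh10 (0.51 ± 0.17) and Cdh15 (0.50 ± 0.14) higher. Of these 7 calls only that of Pcdhb12 held whichever pool was left out. Those of Cdh13, Pcdh18 and Pcdh8 were lost without any 1 of the 4 pools, with adjusted p of 0.0519 to 0.295. Those of Cdh10, Cdh15 and Pcdh10 were lost without either older pool, that of Cdh10 also without young pool 1, and those of Cdh15 and Pcdh10 without young pool 2. Pcdhb12 was dim in both wild-type groups, and Cdh10 and Pcdh10 were dim in all 4 groups. In a fit on the young and older pools alone, where 4.6% of all genes passed, only the calls of Cdh13 and Pcdh18 among the 7 held. The second probe set of Pcdhb12 was at 0.06, and the mean of both at 0.42 (adjusted p = 0.0705). For Cdh13 the other probe sets were at -1.49 ± 0.32 (adjusted p = 0.00421) and -0.49 ± 0.38 (adjusted p = 0.375). Without young pool 2 Pcdh10 was at -0.31, and without young pool 1 Cdh10 was at 0.18. Cdh2 was at -0.40 ± 0.17 on its first probe set (adjusted p = 0.112) and at -0.86 ± 0.17 on another (adjusted p = 0.00247), while the third was at 0.18 ± 0.23 (adjusted p = 0.613).

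**Figure D5:**
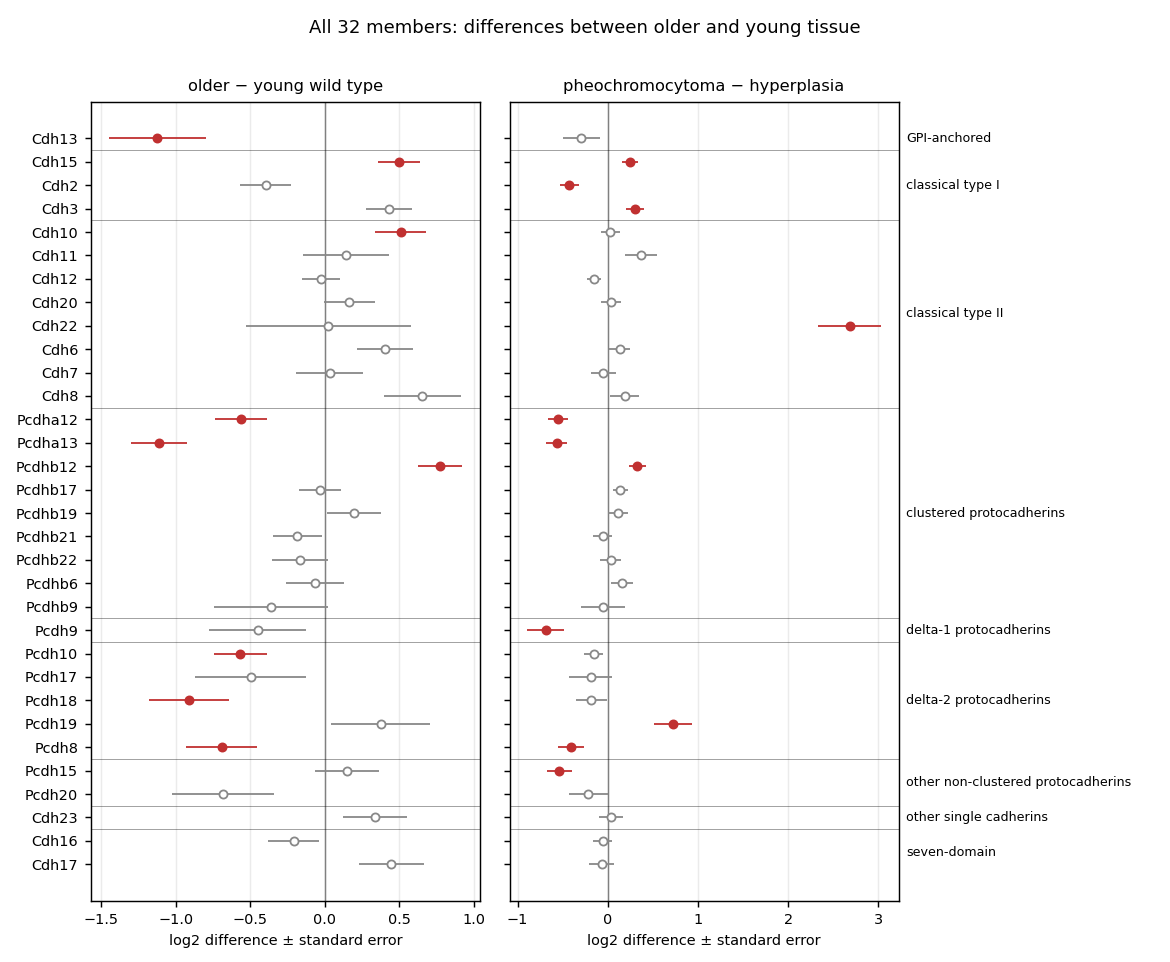
Log2 differences of the 32 members between older and young wild type and between pheochromocytoma and hyperplasia, with standard errors from the limma fit. Filled red points passed (9 and 11 members). Pcdha12 and Pcdha13 lie to the left in both panels and Pcdhb12 to the right in both, while Cdh22 stands at 0.03 in the first and 2.68 in the second.

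Catenins tie the tails of classical cadherins to actin and control their turnover. Of 13 measured genes for catenins and other tail partners, 3 rose in hyperplasia, 4 in the tumours and 0 fell in either, with medians of 0.23 and 0.15 beside -0.01 and 0.00 for all genes. Of all genes 5.16% rose and 3.33% fell in hyperplasia, and 8.84% rose and 6.49% fell in the tumours. These shares stand beside each list that follows as well. Arvcf, a relative of p120-catenin, rose in both, by 0.43 ± 0.12 (adjusted p = 0.0466) and 0.74 ± 0.13 (adjusted p = 0.00353). Ctnnd1, the gene of p120-catenin, which steadies cadherins at the membrane, rose in hyperplasia by 0.54 ± 0.13 (adjusted p = 0.0215) and was at -0.16 ± 0.14 in the tumours. Ctnna2 and Ctnnd2, the neuronal forms of alpha-catenin and delta-catenin, rose in the tumours by 0.61 ± 0.13 and 0.66 ± 0.18 (adjusted p = 0.00845 and 0.029).

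Of 19 other genes of the cadherin superfamily 0 rose and 1 fell in hyperplasia, and 2 rose and 0 fell in the tumours, with medians of -0.05 and -0.01. Celsr3, a seven-pass cadherin of axon growth, rose in the tumours by 1.02 ± 0.20 (adjusted p = 0.00531). Ret, a receptor tyrosine kinase with cadherin-like domains, rose there by 1.22 ± 0.35 (adjusted p = 0.0319). Fat3 fell in hyperplasia by 0.37 (adjusted p = 0.0276), at dim values. Of 9 proteases that act on cadherins Furin, which trims their precursors, rose in hyperplasia by 0.64 ± 0.11 (adjusted p = 0.00423), and Ncstn and Psen2, parts of gamma-secretase, rose in the tumours by 0.54 ± 0.12 and 0.45 ± 0.14 (adjusted p = 0.0097 and 0.0427).

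Of 7 repressors of cadherin genes Tcf4, a helix-loop-helix factor, rose in both comparisons, by 0.90 ± 0.15 (adjusted p = 0.00235) and 0.91 ± 0.16 (adjusted p = 0.00296). The other 6 did not pass, Twist2 among them (-0.39 and -0.21, adjusted p = 0.0719 and 0.347). An unadjusted p under 0.05 was reached by 6 of the 7 in hyperplasia and 2 in the tumours, beside 25.5% and 32.5% of all genes, and the medians were 0.45 and 0.12. Of 12 genes of protocadherin promoter choice and cohesin, Rad21 rose in hyperplasia by 0.33 ± 0.09 (adjusted p = 0.0452) and Smc3 in the tumours by 0.41 ± 0.11 (adjusted p = 0.0218), and 0 fell. Of 12 cytoplasmic partners of protocadherins 0 passed in hyperplasia in limma, where 4 had an unadjusted p under 0.05. In the tumours Abi2 rose by 0.51 ± 0.12 (adjusted p = 0.0139) and Wasf1, like it a part of the WAVE complex of actin assembly, fell by 1.35 (log2, adjusted p = 0.0113). Of 3 measured tip link partners 0 passed in limma in either comparison, where 1 and 0 had an unadjusted p under 0.05, with Ush1c at -0.26 and -0.27 and Cib2 at 0.12 and 0.56 (adjusted p = 0.184 to 0.828).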

How the data were processed

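Expression was measured on 16 single-colour rat probe-set arrays, 1 per sample. The authors deposited log2 expression values made with RMA, per the submitters' processing notes (version and array set not given in the sources used here); RMA's quantile step makes the arrays' distributions alike, so a shift of all genes is not seen. Of 31099 probe sets, 57 controls were left out, 31042 were tested, and gene names came from the platform annotation (20826 with 1 symbol, 436 with several, 9780 with none). limma 3.58.1 under R 4.3.3 was run on the deposited values, with 4 groups and labelled sex (11 residual degrees of freedom), and p-values were adjusted by Benjamini-Hochberg. Cell type markers were listed for adrenal cortex, chromaffin cells, fibroblasts and pericytes, endothelium, leukocytes, Schwann and sustentacular cells, red blood cells, adipocytes and epithelium. All members were tested, with no filter on low values. Array values are given for members that passed against wild type and for the brightest member of each role class; from each list up to 4 passing genes with the largest change are named, or, where fewer than 2 passed, the 2 with the smallest p. The script was tested on simulated data. The members and lists were chosen with earlier results of these data known. 1 gene is not reported here.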

Additional observations from a re-analysis of the deposited data

Results flagged for a closer look

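Of 64 groups of 4 to 10 arrays examined over the 32 members, 3 held an array far from the others by Dixon's criterion, which chance meets in about 1 in 20 groups. Cdh2 was at 10.97 on hyperplasia replicate 1, against 10.66 on the nearest array. Pcdh8 was at 5.78 in tumour 4, the only tumour labelled male, against 6.41 in the nearest tumour. Pcdhb19 was at 4.15 on hyperplasia replicate 8, against 4.45 on the nearest array, and it is dim in all groups.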

How the results depend on the processing

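Against wild type, 5 members passed in hyperplasia and 4 in pheochromocytoma, beside 8.5% and 15.3% of all genes. The shares of all genes moved with the settings as well. They were 1.23% and 0.176% with the cortex covariate. In hyperplasia they were 10.8% with the Xist level, 2.5% without the arrays of discordant Xist and 10.7% without the dimmest probe sets. Between older and young wild type they were 21.1%, and 4.6% in a fit on those groups alone, 16% with array weights and 17.8% with the cortex covariate. In hyperplasia the number was 9 with the Xist level as the covariate, 3 without the hyperplasia arrays whose Xist level went against the label and 2 without the dimmest probe sets. It was 1 (Pcdh9) with a covariate for the cortex markers. With 1 hyperplasia array left out it was 5 or 6, and 6.65% to 10.1% of all genes passed. Without either young pool the number fell, and so did the share of all genes. In the tumours the number was 0 with the cortex covariate, with 4 at an unadjusted p under 0.05 in limma. It also fell without older pool 2, and so did the share of all genes. The number for the difference of effects was 0, beside 0.00703% of all genes. Without older pool 1, which leaves 1 older pool, the Cdh22 difference of effects was 3.32, against 2.66 in the main fit. Between tumours and hyperplasia the number was 11, beside 33.8% of all genes, and 7, beside 27.6%, without the hyperplasia arrays whose Xist level went against the label. Between older and young wild type it was 9, with 3 in a fit on these groups alone, 5 with array weights and 5 with the cortex covariate. It fell without any single pool, and so did the share of all genes.

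Replicate numbers did not pair the samples: deviations of same-numbered arrays correlated at -0.179 to 0.212. With the replicate block the numbers were 0 in hyperplasia (6 at an unadjusted p under 0.05 in limma), 1 in the tumours and 5 between tumours and hyperplasia. Of all genes 0.359%, 2.08% and 20.2% passed in these fits. Differences that passed kept their sign under the settings run for them; the Cdh22 difference in hyperplasia, which did not pass, was -0.64 on its first probe set and 0.54 with the mean of both. Groups of 2 pools limit the precision, and dim probe sets have no shown signal over background.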

Other observations

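Of 13 endothelial markers 0 passed in hyperplasia in limma, with 1 at an unadjusted p under 0.05, and 1 passed as lower in the tumours. Of 13 fibroblast and pericyte markers 2 passed as higher in the tumours and 0 as lower. Of 10 Schwann and sustentacular cell markers 1 passed as higher in hyperplasia, and 2 as higher and 1 as lower in the tumours. Of 13 macrophage and leukocyte markers 1 passed as higher in hyperplasia. Of 9 epithelial markers 3 passed as higher and 1 as lower in hyperplasia, and 3 as higher in the tumours. Of 10 chromaffin markers 2 passed as higher and 1 as lower in hyperplasia, and 4 as higher in the tumours. Of 7 adipocyte markers 2 passed as lower in the tumours. Of 4 red blood cell markers 0 passed in either comparison in limma, with 1 and 0 at an unadjusted p under 0.05. Beside these counts, 5.16% of all genes passed as higher and 3.33% as lower in hyperplasia, and 8.84% and 6.49% in the tumours. The part of any of these markers in the members' values was not tested.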
